A study of Mus musculus with 23 samples.

Results

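Macrophages at the borders of the mouse brain that descended from blood monocytes were set against the border macrophages of animals whose brain was never emptied of macrophages. The comparison used 8 of the 23 RNA sequencing libraries of the series, chosen by the sort gate and treatment in their labels: 3 libraries of tdT+ subdural CNS-associated macrophages (sdCAMs) from BLZ945-treated mice and 5 libraries of tdT− sdCAMs from vehicle-treated (CTL) mice. All libraries were sequenced from sorted cells 1 day after a stroke. The 2 groups came from different animals, so no pairs exist between them.

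The sdCAMs are the macrophages of the leptomeninges and of the perivascular space, which take up debris and proteins from the cerebrospinal fluid and bear the mannose receptor CD206. In the undisturbed brain most of them descend from the yolk sac and renew themselves, whereas blood monocytes descend from haematopoietic stem cells (HSCs) and carry the chemokine receptor CCR2. When the niche is emptied, monocytes can enter it and become macrophages there.

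All animals of both groups carried the genotype Ccr2creERT2/+ R26tdT/tdT and received 2 mg of tamoxifen on each of 3 days from the end of the gavage. The Ccr2 promoter drives the inducible Cre recombinase, so that cells with active Ccr2 at the time of tamoxifen, and their descendants, keep the red protein tdTomato (tdT). BLZ945, which blocks the CSF-1 receptor that macrophages need to survive, was given to the tdT+ group at 200 mg/kg for 7 days, and the CTL group received vehicle instead. Per the study's methods, mice of both sexes were 10 ± 3 weeks old at the first gavage. The stroke was set 8 weeks after gavage by thrombin in the middle cerebral artery. The sort excluded Ly6C, Ly6G and CD11c and required CD45, CD11b and CD206, after removal of the choroid plexus, and split the cells by tdT.

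By the labels, the tdT+ libraries named F3 and M2 pooled 2 mice each and F2 named 1 mouse, whereas each CTL library held 1 mouse. The study's methods describe pools of BLZ945-treated mice for every replicate, so the label of F2 and the methods differ. Treatment, cell origin and the tdT gate moved together and cannot be told apart in this comparison, and pooling moved with them in part. A tdT− cell can be of any origin that escaped labelling. The 5 tdT− libraries from BLZ945-treated mice are given beside some results, and those named F2, F3 and M2 carry the animal numbers of the tdT+ libraries. The animal of F2 is also named in the label of the tdT− BLZ945 library M1, and whether these share a mouse could not be worked out.

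Total counts lay between 10257806 and 13276081 per library, and values are given as counts per 1000000 (CPM). The detection floor, set at 3 counts in a library and scaled like the CPM, came to between 0.223 and 0.291 CPM and covers counting error only. The sort gene Mrc1, which encodes CD206, lay at 2378 to 2788 CPM in the tdT+ and at 2760.3 to 3171 CPM in the CTL libraries, and none of the 5 general sdCAM markers tested (Mrc1, Clec12a, Lyz2, Ms4a7, Apoe) passed the test, with log2 fold changes from −0.23 to 0.74. At equal depth of 10257806 counts, 14017 to 14238 genes were detected in the tdT+ and 14611 to 15345 in the CTL libraries, a difference of −887 genes (p = 0.0357 by an exact, two-sided permutation test, which cannot give a lower p with 3 against 5 libraries). Markers of T and NK cells summed to at most 2.48 CPM in the tdT+ and 4.86 CPM in the CTL libraries, and those of mast cells to at most 0.190 and 2.93 CPM. Summed microglial markers overlapped between the groups, at 2188 to 2829 CPM in tdT+ and 1682 to 2831 CPM in CTL libraries. Neutrophil markers summed to 128 to 162 CPM in tdT+ and 118 to 222 CPM in CTL libraries, and B cell markers, mostly Ighm, to 248 to 371 and 205 to 331 CPM, with Cd79a and Igkc at 0 in all 8. The tdT+ library F3 was the highest of its group for oligodendrocyte markers, at 289 CPM against 84.4 and 92.1 CPM in F2 and M2 and 65.4 to 222 CPM in CTL libraries, and for astrocyte markers, at 208 CPM against 77.0 and 56.9 CPM and 59.8 to 249 CPM. The part of these cells in the results was not tested. Markers of choroid plexus and ependyma summed to 1670 CPM in the tdT+ library F3, almost all of it Ttr, against 0 and 0.194 CPM in F2 and M2 and 0.670 to 78.8 CPM in the CTL libraries. F3 was also the highest tdT+ library for 6 of the 9 genes that passed the test as higher in tdT+. Without F3, 7 of the 9 no longer passed, and without F2, 8 did not. The part of choroid plexus material in F3 was not tested. No member of the 14 marker lists for other cell types passed the test.

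The tdT+ sdCAMs held more transcript of the MHC class II genes H2-Eb1, Cd74 and H2-DMa and of the adhesion molecule Jaml. They held less of the uptake receptors Cd163, Timd4 and Colec12, of the lectins Cd209b, Cd209f and Cd209g, of the complement inhibitor Cd55 and of the iron exporter Slc40a1. Of 13076 genes tested with edgeR's quasi-likelihood test, 37 passed an adjusted p of 0.05 (Benjamini-Hochberg), which is 0.283% of the genes tested. Of these, 9 were higher in tdT+ sdCAMs (0.0688% of genes tested) and 28 were lower (0.214%). In all 37 genes the CPM ranges of the 2 groups did not overlap, which held for 8.35% of all genes tested (3.31% higher and 5.04% lower). The log2 fold changes of the called genes ran from 1.05 to 3.74 among those higher and from −0.97 to −5.65 among those lower that had counts in each tdT+ library, while the median over all genes tested was −0.03. In sorted pools, fewer cells that express a gene and less RNA per cell cannot be told apart.

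MHC class II molecules present peptides from engulfed material to CD4 T cells, and 3 genes of this pathway rose together. H2-Eb1, the beta chain of the I-E molecule, was at 1878, 1912 and 929 CPM in the tdT+ libraries F2, F3 and M2 and at 345, 539, 284, 619 and 320.3 CPM in the CTL libraries F1, F2, F3, M1 and M2. Cd74, the invariant chain that escorts class II molecules to the endosome, was at 10262, 10701 and 5567 CPM against 1924, 3136, 2119, 3199 and 1864 CPM in the same order. Every tdT+ library exceeded every CTL library for both genes, and the library M2 was the lowest of the tdT+ group. H2-DMa, part of the chaperone that loads peptides onto class II molecules, was at 497, 502 and 356 CPM in tdT+ and at 136, 210.3, 140.1, 165 and 98.5 CPM in CTL libraries. The fold differences were 3.73 for H2-Eb1 (log2 1.90 ± 0.37 SE, adjusted p = 0.0349), 3.61 for Cd74 (1.85 ± 0.34 SE, adjusted p = 0.0244) and 3.01 for H2-DMa (1.59 ± 0.32 SE, adjusted p = 0.048), all by edgeR.

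The H2-Eb1 promoter and that of H2-Aa, the alpha chain of the I-A molecule, are shown because class II genes share short upstream elements, the X and Y boxes, that the class II transactivator complex reads. The sequences are from RefSeq (GRCm38.p6) and cover the 250 bases before the transcription start, on the plus strand for H2-Eb1 (chr17:34305617-34305866) and on the minus strand for H2-Aa (chr17:34287824-34288073). Capitals mark matches to CTNGCAAC, a core of the X box, and to CTGATTGG, the Y box.
H2-Eb1: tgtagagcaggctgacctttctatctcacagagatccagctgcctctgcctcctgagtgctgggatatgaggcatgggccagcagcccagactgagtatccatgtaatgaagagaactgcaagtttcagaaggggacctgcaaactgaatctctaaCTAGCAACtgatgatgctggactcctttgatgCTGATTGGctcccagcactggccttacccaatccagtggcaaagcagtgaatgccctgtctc
H2-Aa: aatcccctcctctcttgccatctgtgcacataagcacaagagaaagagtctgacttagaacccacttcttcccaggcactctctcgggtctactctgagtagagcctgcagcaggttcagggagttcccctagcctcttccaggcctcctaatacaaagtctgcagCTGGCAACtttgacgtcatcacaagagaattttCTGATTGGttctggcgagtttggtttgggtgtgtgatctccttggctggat
The X box core began 94 bases and the Y box 62 bases before the start of H2-Eb1, and 84 and 51 bases before the start of H2-Aa. Searched on both strands, with no overlap between them in these promoters, CTNGCAAC was found in 2.84%, CTGATTGG in 3.83% and both in 0.155% of 32851 promoters of this length. Neither set of letters was found before the 2 listed starts of H2-DMa. Among the 25 called genes with a promoter in the table, CTNGCAAC also stood before Cd163, Mcts2 and P2rx7 and CTGATTGG before Xlr, all of them lower in tdT+ sdCAMs.

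Both chains of the I-A molecule lay just outside the threshold. H2-Aa was at 2677, 2956 and 1187 CPM in tdT+ and at 444, 861, 391, 863 and 406 CPM in CTL libraries (1.94 ± 0.40 SE in log2 units, edgeR adjusted p = 0.0549). H2-Ab1, its beta chain partner, was at 3266, 3737 and 1781 CPM against 636, 1146, 474, 1190.1 and 582 CPM (1.86 ± 0.39 SE, edgeR adjusted p = 0.0602). Neither gene overlapped between the groups. H2-DMb1, the partner of H2-DMa, was farther off (1.03 in log2 units, adjusted p = 0.405), as were H2-DMb2, H2-Oa and H2-Ob, with adjusted p-values of 0.941, 0.996 and 0.981. Of 16 pathway genes listed, 15 were tested, 3 were called higher and none lower, and 12 had a positive log2 fold change, with a median of 0.92. Ciita, the transactivator of the pathway, was among the low genes, at a mean of 1.79 CPM in tdT+ and 3.38 CPM in CTL libraries, and the costimulatory genes Cd80 and Cd86 had log2 fold changes of −0.12 and −0.12 without a call. MHC class I presentation had no called gene among 15 tested and a median of 0.20. H2-Aa, H2-Ab1 and H2-DMb1 were singled out after their values were seen, and genes of the H2 family have near-identical stretches that counting could split wrongly.

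The call for the class II genes depended on the libraries kept. Without the tdT+ library F2 or without F3, all 3 lost the call, and the adjusted p rose to at most 0.21 for H2-Eb1, 0.159 for Cd74 and 0.233 for H2-DMa over all 18 alternative settings. H2-DMa lost it without M2 too, and H2-Eb1 with the letter F or M of the library as a covariate. Leaving out single CTL libraries also ended calls: F1, F2, M2 or F3 for H2-Eb1, F1, M2 or F3 for Cd74, and M1, F1, M2 or F3 for H2-DMa. The direction was the same in all 18 settings for each of the 3 genes. In the model of only the 8 libraries compared, H2-Aa (adjusted p = 0.021) and H2-Ab1 (adjusted p = 0.0187) passed as well.

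Jaml, a junctional adhesion molecule that leukocytes use to cross epithelial and endothelial layers, had the largest log2 fold change among the genes called higher. It was at 154, 307 and 71.4 CPM in the tdT+ libraries F2, F3 and M2 and at 24.7, 19.8, 9.62, 6.17 and 5.98 CPM in the CTL libraries F1, F2, F3, M1 and M2. The groups were far apart, yet the tdT+ libraries themselves ranged widely. The fold difference was 13.4 (log2 3.74 ± 0.61 SE, edgeR adjusted p = 0.00968), and without the library F3, the highest, the adjusted p was 0.0757. Jaml was the only called gene among 24 tested genes of integrins and leukocyte adhesion, whose median log2 fold change was 0.14.

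Slamf9, a receptor of the SLAM family found on macrophages and dendritic cells, was at 159, 86.8 and 102 CPM in tdT+ and at 51.0, 38.8, 33.5, 46.8 and 42.4 CPM in CTL libraries. Lat2, an adaptor of immunoreceptor signalling in myeloid and B cells, was at 71.6, 62.4 and 62.6 CPM against 25.8, 28.8, 13.8, 20.6 and 24.2 CPM. Fxyd5, a small membrane protein that regulates the sodium pump and cell adhesion, was at 469, 536 and 316 CPM against 202, 173, 254, 169.5 and 264 CPM. Each of the 3 tdT+ libraries exceeded all 5 CTL libraries for these genes, with the smallest ratio between the nearest libraries for Fxyd5. Slamf9 rose 2.73-fold (edgeR adjusted p = 0.014), Lat2 rose 2.89-fold (adjusted p = 0.0144) and Fxyd5 rose 2.07-fold (adjusted p = 0.0334). Slamf9 lost the call without the tdT+ library F2 (adjusted p = 0.159), Lat2 without the tdT+ libraries F2 or F3 or the CTL library M1 (at most 0.107), and Fxyd5 in 8 of 18 settings (at most 0.253), which left out the CTL libraries M1, F1 or F2 or the tdT+ libraries F2 or F3, used the 8 or all 23 libraries, or added the replicate block.

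Gt(ROSA)26Sor, the noncoding RNA made at the locus that holds the tdT cassette, was at 28.6 to 40.7 CPM in tdT+ and at 3.65 to 9.43 CPM in CTL libraries (6.44-fold, edgeR adjusted p = 0.012, lost without the tdT+ libraries F2 or F3 and with the replicate block, at most 0.116). Because the sort split the cells by tdT, this gene serves as a check of the sort and not as a separate result. Gm36161 was the remaining gene called higher, and it lost the call without the tdT+ library F2 (0.107). In the annotation Jaml overlaps Gm10684, H2-DMa overlaps Brd2 and Gt(ROSA)26Sor overlaps Thumpd3, and the counting is not stated to use strand.

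**Figure D1:**
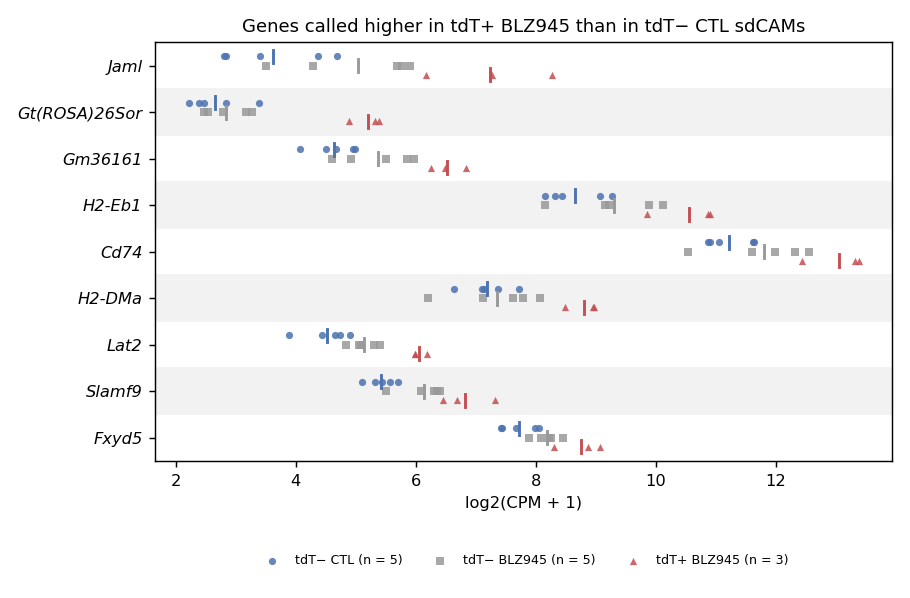
Level of the 9 genes called higher in tdT+ BLZ945 than in tdT− CTL sdCAMs, on the log2(CPM + 1) scale on the horizontal axis, with 1 gene per row. Each symbol is a library (blue circles tdT− CTL, grey squares tdT− BLZ945, red triangles tdT+ BLZ945) and each vertical bar is the mean of its group, and the 3 red symbols of a gene lie to the right of all 5 blue ones.

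Fxyd5 was the only called gene of 19 monocyte genes tested from a list of 24. Of the 19, 11 were positive and 8 negative, with a median log2 fold change of 0.17. S100a6 had the highest log2 fold change of the list at an average log2 CPM of at least 3. It was at 26.4, 10.3 and 18.2 CPM in tdT+ and at 5.37, 5.88, 6.48, 2.16 and 6.36 CPM in CTL libraries. S100a6 did not overlap between the groups and did not pass (1.80 ± 0.57 SE in log2 units, edgeR adjusted p = 0.408). Ccr2 itself, whose promoter drove the label, was at 7.55, 41.3 and 12.3 CPM in tdT+ and at 9.52, 5.65, 17.1, 10.6 and 10.5 CPM in CTL libraries. These ranges overlapped, and the fitted difference was 0.93 ± 1.05 SE in log2 units (adjusted p = 0.971 by edgeR), and without the tdT+ library F3 the log2 fold change was −0.11. Ly6c2, Chil3, F10, Hp and Cd177 of the list had too few counts to be tested. Part of that list encodes or accompanies Ly6C, which the sort excluded.

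Spn, which encodes the sialoglycoprotein CD43 of nonclassical monocytes, was at 2.96, 2.76 and 1.07 CPM in tdT+ and at 0 to 0.306 CPM in CTL libraries. It did not overlap between the groups and did not pass (4.68 ± 1.73 SE in log2 units, edgeR adjusted p = 0.54). It was singled out after its values were seen.

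The uptake receptors Cd163, Timd4 and Colec12 of resident border macrophages fell. Cd163, the receptor for haemoglobin bound to haptoglobin, was at 302, 347 and 362 CPM in the tdT+ libraries F2, F3 and M2 and at 1676, 2140.3, 1438, 1626 and 1271 CPM in the CTL libraries F1, F2, F3, M1 and M2. Timd4, which binds phosphatidylserine on dying cells, was at 6.92, 8.00 and 24.02 CPM against 163, 226, 213, 230.3 and 176 CPM. Colec12, a scavenger receptor with a C-type lectin domain, was at 37.1, 31.4 and 61.8 CPM against 312, 319.8, 411, 338 and 324 CPM. For all 3 genes the highest tdT+ library was far under the lowest CTL library.

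Cd4, known as the T cell coreceptor and also present on some tissue macrophages, was at 2.07, 1.05 and 2.52 CPM in tdT+ and at 77.9, 117, 95.9, 85.3 and 97.3 CPM in CTL libraries. The T cell markers named above were near 0 in the same libraries. Cd4 fell by 5.65 on the log2 scale (50.2-fold lower, edgeR adjusted p = 1.69e-06), Timd4 by 3.96 (15.5-fold, 0.000464), Colec12 by 2.97 (7.85-fold, 0.000134) and Cd163 by 2.27 (4.84-fold, 0.000532). Cd4, Timd4 and Colec12 kept the call in all 18 settings. Cd163 kept it in 17 and had an adjusted p of 0.0523 in the model of all 23 libraries.

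Igf1, a growth factor that border macrophages release, was at 159.9, 164 and 129 CPM in tdT+ and at 249, 269.9, 353, 294 and 311 CPM in CTL libraries. It was 1.96-fold lower (edgeR adjusted p = 0.0334), and the call was lost in 9 of 18 settings, with an adjusted p of at most 0.314. These left out any 1 of the 3 tdT+ libraries or the CTL libraries M1, F2, M2 or F3, used all 23 libraries or added the replicate block.

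Of 28 genes listed for resident border macrophages and scavenging, 27 were tested, 5 were called lower and none higher, and 3 had a positive log2 fold change. The median was −0.57. Lyve1, the hyaluronan receptor that marks perivascular and leptomeningeal macrophages, was at 1680.1, 1113 and 1599.6 CPM in tdT+ and at 2709, 2594, 2289.8, 1698 and 1969.9 CPM in CTL libraries (log2 fold change −0.62 ± 0.19 SE, edgeR adjusted p = 0.4). The lowest CTL library, M1, lay only just above the highest tdT+ library, F2. Ednrb, an endothelin receptor, was at 70.3, 63.6 and 203 CPM against 290.3, 347, 428, 497 and 717 CPM, again without a call (adjusted p = 0.14). Folr2, Siglec1 and Ccl8 had the positive log2 fold changes, from 0.10 to 0.32. The general macrophage genes Csf1r and Adgre1 were not called, at −0.33 ± 0.17 SE for the former and −0.44 ± 0.16 SE for the latter in log2 units. Lyve1 and Ednrb were singled out after their values were seen.

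A list of 5 genes for yolk sac and 1 of 6 genes for HSC descent of sdCAMs was put together from genes the study linked to each, with H2-Aa, H2-Ab1, H2-Eb1 and Cd74 standing for the class II genes. Of the yolk sac genes, Cd163 and Colec12 were called lower, C4b had a log2 fold change of −1.46 (edgeR adjusted p = 0.107) and Folr2 was the positive one, at 0.29. Of the HSC genes, H2-Eb1, Cd74 and Fxyd5 were called higher and all 6 were positive, with a median of 1.86. The latter list shares 4 genes with the class II list, so the 2 counts are not separate evidence.

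Cd209 genes encode lectins related to human DC-SIGN that bind sugars on microbes and host proteins, and 3 of them fell. Cd209b (SIGN-R1) was at 8.26, 5.62 and 10.6 CPM in the tdT+ libraries F2, F3 and M2 and at 276, 329.8, 250.1, 476 and 251 CPM in the CTL libraries F1, F2, F3, M1 and M2. Cd209f was at 211, 166 and 93.7 CPM against 847, 841, 774, 1208 and 705 CPM. Cd209g was at 46.0, 14.6 and 13.2 CPM against 158, 177, 121, 218 and 115 CPM. All 3 genes were separated in every library, with the library F2 the highest tdT+ library for Cd209f and Cd209g and M2 for Cd209b.

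Cd209b was 38.8-fold lower (edgeR adjusted p = 3.88e-07), Cd209g 6.42-fold lower (adjusted p = 0.0057) and Cd209f 5.57-fold lower (adjusted p = 0.000788), and all 3 kept the call in all 18 settings. Cd209a was at 53.4, 67.0 and 11.5 CPM in tdT+ and at 395, 419.7, 199, 723 and 381 CPM in CTL libraries, just outside the threshold (adjusted p = 0.0538). Cd209a also stands in the marker list of dendritic cells and was its most abundant gene over the 8 libraries, and that list summed to 85.4 to 139 CPM in tdT+ and 282.9 to 805 CPM in CTL libraries. Without Cd209a the other 10 dendritic cell markers summed to 69.9 to 73.9 CPM in tdT+ and 68.0 to 84.3 CPM in CTL libraries, which overlap, and Xcr1 was at 0 in all 8 libraries. Cd209d, at 0.449 to 4.95 CPM in tdT+ and 14.005 to 76.7 CPM in CTL libraries, did not pass (adjusted p = 0.605).

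Mgl2 (CD301b), a galactose lectin, ran the other way, at 987, 1141 and 572 CPM in tdT+ and 387, 370.2, 473, 547 and 450.4 CPM in CTL libraries (1.01 ± 0.21 SE in log2 units, edgeR adjusted p = 0.0539). Over the 23 lectin genes tested, 4 were called lower, none higher, 9 were positive and the median was −0.33. Members of the Cd209 cluster resemble each other closely, so single values are uncertain. Cd209a, Cd209d and Mgl2 were singled out after their values were seen.

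Cd55, the membrane inhibitor that breaks up C3 convertases of the complement system, was at 0.449, 2.86 and 3.97 CPM in tdT+ and at 90.03, 104, 49.4, 117 and 88.2 CPM in CTL libraries. The groups were well apart, and Cd55 came near the floor in the tdT+ library F2. It was 37.03-fold lower (edgeR adjusted p = 0.000606), with the call kept in the 17 settings in which it was tested.

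C2, the protease precursor of the classical convertase, was at 0, 0 and 4.17 CPM in tdT+ and at 35.7, 45.8, 62.6, 49.7 and 30.0 CPM in CTL libraries, and lay just outside the threshold (edgeR adjusted p = 0.0538). It was singled out after its values were seen. C1qa, C1qb and C1qc had log2 fold changes of 0.19, 0.37 and 0.22 without a call. The transcript Cd55os overlaps Cd55 in the annotation, and reads from the 2 cannot be told apart without strand.

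Slc40a1, ferroportin, the only known exporter of cellular iron, was at 128, 88.0 and 150.4 CPM in tdT+ and at 511, 509, 521, 784 and 513 CPM in CTL libraries. The CTL libraries were close to each other apart from M1, and all were above the tdT+ libraries. It was 4.65-fold lower (edgeR adjusted p = 0.0056) and kept the call in all 18 settings. With Cd163, 2 of 18 tested iron and haem genes were called lower and none higher, and 3 were positive, with a median of −0.44. The ferritin genes Fth1 and Ftl1 had log2 fold changes of −0.24 and −0.31, and haem oxygenase Hmox1 of −0.78, without a call.

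Pla2g2d, Hgsnat and Ecm1 were lower as well. Pla2g2d, a secreted phospholipase A2 of resting macrophages and dendritic cells, was at 40.0, 36.4 and 44.2 CPM in tdT+ and at 147, 186, 136, 275.4 and 125 CPM in CTL libraries. Hgsnat, a lysosomal enzyme that breaks down heparan sulphate, was at 197, 115 and 181 CPM against 457, 358, 332, 769 and 615 CPM. Ecm1, an extracellular matrix protein, was at 59.4, 37.5 and 38.6 CPM against 129, 139.5, 135, 205 and 162 CPM. The tdT+ libraries agreed closely for Pla2g2d, and each of these genes was separated between the groups. Pla2g2d was 4.33-fold lower (edgeR adjusted p = 0.00188, kept in 18 settings), Ecm1 3.41-fold lower (adjusted p = 0.015) and Hgsnat 3.08-fold lower (adjusted p = 0.0244). Ecm1 lost the call without the tdT+ libraries F3 or M2 (at most 0.131), and Hgsnat without any 1 of the 3 tdT+ libraries, without the CTL libraries M1 or M2 and with the replicate block (at most 0.195).

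Slc15a2, a transporter of di- and tripeptides, was at 20.2, 35.0 and 32.6 CPM in tdT+ and at 115, 87.5, 135, 144 and 119 CPM in CTL libraries. P2rx7, the ATP-gated channel that triggers inflammasomes, was at 117, 109.7 and 171 CPM against 358, 316, 367, 373 and 360.3 CPM. For both genes the CTL libraries lay together above the tdT+ libraries. Slc15a2 was 4.10-fold lower (edgeR adjusted p = 0.00771, lost without the tdT+ library F2 and in the model of all 23 libraries, at most 0.185) and P2rx7 2.67-fold lower (adjusted p = 0.00289, kept in 18 settings). Gpx3, a secreted glutathione peroxidase singled out after its values were seen, lay just outside the threshold at 584 to 729.6 CPM in tdT+ and 1101 to 1315 CPM in CTL libraries (adjusted p = 0.0539).

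Sgce, epsilon-sarcoglycan, and Xlr, an X-linked lymphocyte-regulated gene, were also lower in tdT+ sdCAMs. Sgce was at 19.3, 7.71 and 19.7 CPM in tdT+ and at 93.0, 104, 94.7, 94.5 and 106 CPM in CTL libraries. Xlr was at 7.46, 11.7 and 4.84 CPM against 41.2, 42.4, 42.5, 40.2 and 47.7 CPM. The CTL libraries thus spanned a small range while the tdT+ libraries lay far under it. Sgce was 6.32-fold lower (edgeR adjusted p = 0.000532) and Xlr 5.34-fold lower (adjusted p = 0.00188), and both kept the call in all 18 settings. Xlr has close copies in the genome, so its counts are uncertain.

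Gimap6, a GTPase of immune cells, was at 5.66, 3.62 and 13.7 CPM in tdT+ and at 32.1, 43.9, 36.8, 67.3 and 41.2 CPM in CTL libraries. Cpne8, a calcium-dependent membrane-binding protein, was at 4.94, 2.57 and 0.387 CPM against 37.7, 29.7, 38.1, 32.8 and 63.2 CPM. The groups were apart for both of these genes. Pkp4, a plakophilin of cell junctions, was at 6.47, 2.67 and 6.20 CPM against 27.2, 36.0, 28.0, 38.4 and 40.5 CPM. Tcim, a regulator of Wnt signalling, was at 4.49, 0 and 1.26 CPM against 37.2, 28.9, 53.4, 33.8 and 23.4 CPM. Neither of these overlapped between the groups either. The 4 genes were 5.79-fold (Gimap6, edgeR adjusted p = 0.0198), 15.2-fold (Cpne8, 0.00833), 6.64-fold (Pkp4, 0.0244) and 18.2-fold (Tcim, 0.0334) lower. The calls did not hold in every setting, failing in 2 of 17 for Cpne8, 3 of 18 for Gimap6, 6 of 18 for Pkp4 and 8 of 17 for Tcim, with an adjusted p of at most 0.0685, 0.159, 0.153 and 0.136 respectively. The settings were, for Cpne8, the replicate block and leaving out the tdT+ library F3, and for Gimap6, leaving out the CTL library M1 or the tdT+ libraries F2 or F3. For Pkp4 they were leaving out the CTL libraries M1, F2 or M2 or any 1 of the 3 tdT+ libraries. Tcim lost the call without any 1 of the 5 CTL libraries, without the tdT+ library M2, with the replicate block and in the model of only the 8 libraries compared.

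A last group of lower genes was scarce in every library and at or near 0 in tdT+ sdCAMs. Fzd8, a Wnt receptor, was at 14.2, 20.8, 15.6, 14.9 and 8.58 CPM in the CTL libraries F1, F2, F3, M1 and M2, and no count was found in the 3 tdT+ libraries. Lbx1, a homeobox gene of muscle and spinal cord precursors, was at 13.3, 9.003, 12.2, 5.06 and 12.1 CPM in CTL and at 0 in tdT+ libraries. Postn, the matrix protein periostin, was at 10.003, 5.58, 6.29, 8.40 and 18.9 CPM in CTL and at 0 in tdT+ libraries. These genes were grouped for being at or near 0 in tdT+ libraries, so the pattern restates how they were chosen. Without counts in tdT+ libraries, these genes passed the count filter through the tdT− libraries alone. At equal depth the tdT+ libraries detected fewer genes, and the part of this in the zeros was not tested. Against a floor of 3 counts per library, set at the highest floor of the 3, the levels were at least 51.0-fold lower for Fzd8, at least 35.6-fold lower for Lbx1 and at least 33.9-fold lower for Postn, with edgeR adjusted p-values of 0.00188, 0.000788 and 0.0121. C330018A13Rik was called lower as well and was also at 0 in the 3 tdT+ libraries.

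Mcts2, a translation factor gene that lies inside the gene H13, had 1 count over the 3 tdT+ libraries and 435 counts over the 5 CTL libraries, a ratio of rates of 222 with an exact 95% interval of 39.6 to 8773 that covers counting error only (edgeR adjusted p = 0.00771). Without strand its reads and those of H13 cannot be told apart. Fkbp14, a chaperone of collagen folding in the endoplasmic reticulum, was at 0.359, 0 and 0 CPM (4 counts in all) in tdT+ and at 6.26, 18.9, 13.9, 8.03 and 2.83 CPM in CTL libraries (adjusted p = 0.0198). Of these 6 scarce genes, Fzd8 and Lbx1 kept the call in all 17 settings in which they were tested. Postn lost it without the tdT+ libraries F2 or F3 (at most 0.0691), Mcts2 without F2 and with the replicate block (at most 0.0703), Fkbp14 without F3 or M2 (at most 0.112), and C330018A13Rik without any 1 of the 3 and with the replicate block (at most 0.116). Fibroblast markers, given here because fibroblasts also express Postn, summed to 16.6 to 22.7 CPM in tdT+ and 24.3 to 31.1 CPM in CTL libraries, and their part in these values was not tested.

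**Figure D2:**
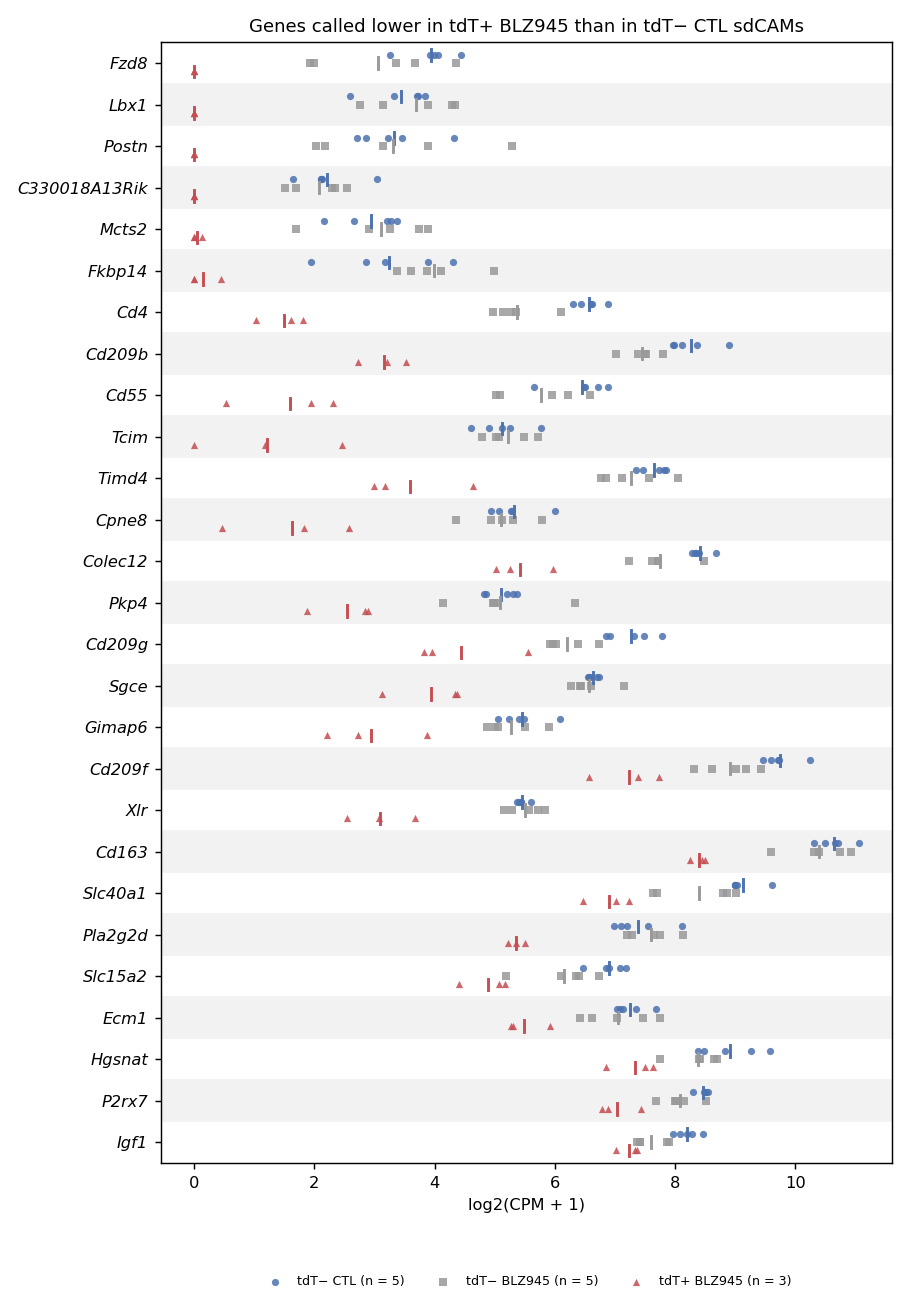
Level of 27 of the 28 genes called lower in tdT+ BLZ945 than in tdT− CTL sdCAMs, on the log2(CPM + 1) scale on the horizontal axis, with 1 gene per row in the order of the log2 fold change. Each symbol is a library (blue circles tdT− CTL, grey squares tdT− BLZ945, red triangles tdT+ BLZ945) and each vertical bar is a group mean. The red symbols lie to the left of all blue ones in each row and sit at 0 in the 4 top rows.

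Groups of genes that report an acute response to injury were not called at this spread between libraries. No gene was called among 23 chemokines, 10 chemokine receptors, 19 inflammatory cytokine and inflammasome genes, 22 immediate early genes, 26 interferon-stimulated genes, 13 heat shock chaperones and 17 Toll-like receptors and adaptors, and the lowest edgeR adjusted p in these lists was 0.107, for Ifit2. Ifit2, an interferon-induced RNA-binding protein, averaged 15.4 CPM with an SD of 11.6 over the 3 tdT+ and 87.7 CPM with an SD of 45.3 over the 5 CTL libraries. At an unadjusted p of 0.05, 3 of the interferon-stimulated genes, 1 of the chemokines and none of the immediate early genes would have passed, beside 7.44% of all genes tested. Jun, the AP-1 subunit with the lowest log2 fold change among the abundant immediate early genes, averaged 2155 CPM with an SD of 1068 and 3088 CPM with an SD of 933, so its spread within each group was of the size of the difference.

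The 30 lineage transcription factors tested also held no call. Runx3, a factor of leukocyte differentiation, averaged 21.2 CPM with an SD of 13.1 in tdT+ and 3.55 CPM with an SD of 3.13 in CTL libraries. Mef2a, a factor of tissue macrophage programmes, averaged 112 CPM with an SD of 15.6 against 199.7 CPM with an SD of 31.1. Neither overlapped between the groups, and neither passed (edgeR adjusted p = 0.511 and 0.383). The Ms4a family had 9 of 10 tested genes positive, a median of 0.66 and no call. Cell cycle genes had 3 of 16 positive, a median of −0.72 and no call.

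**Figure D3:**
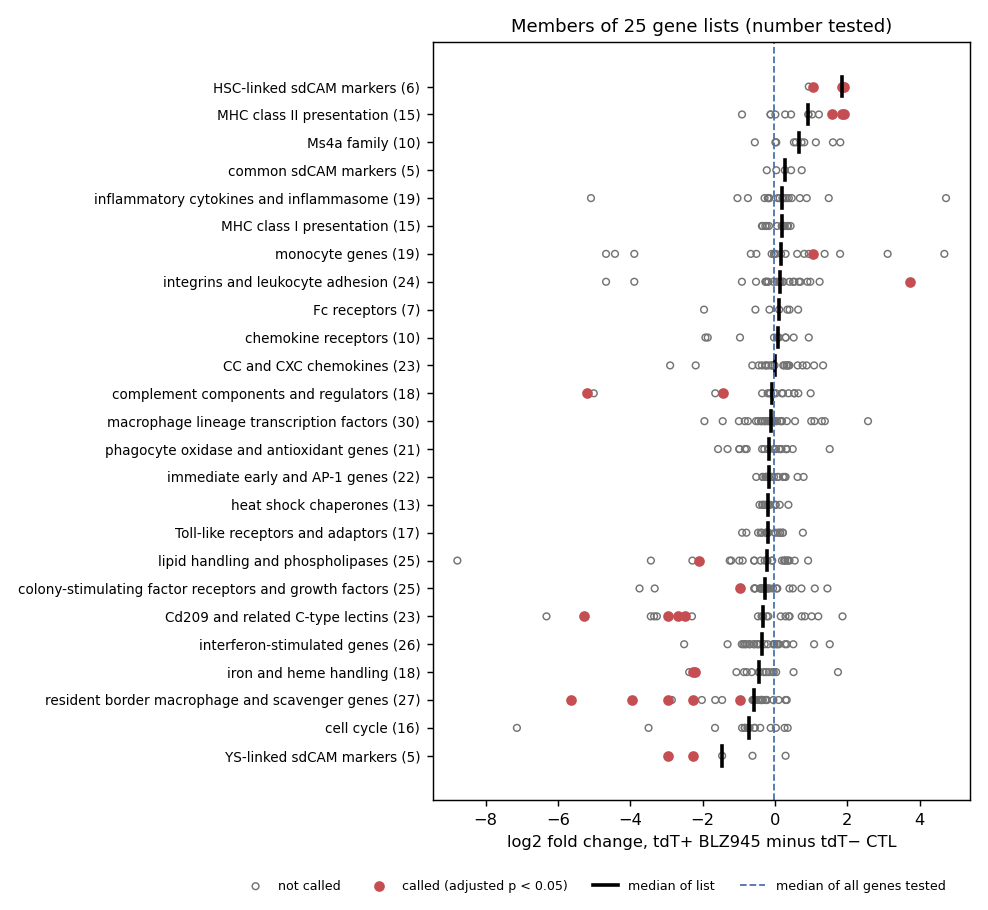
Log2 fold change, tdT+ BLZ945 minus tdT− CTL, of each tested gene (horizontal axis) in 25 gene lists (rows, number of genes tested in parentheses). Red points passed an adjusted p of 0.05, open points did not, black bars mark the median of a list and the dashed line marks the median of all 13076 genes. The HSC-linked list has the highest median (1.86) and the yolk sac-linked list the lowest (−1.46). Both lists hold genes the study had linked to each origin and were chosen with earlier results of these data known, so their rank is not separate evidence.

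The tdT+ libraries also varied among themselves. The Spearman correlation between libraries, computed across genes, which are not independent replicates, was 0.889 to 0.902 (median 0.893) within tdT+, 0.916 to 0.930 (median 0.923) within CTL and 0.891 to 0.915 (median 0.903) between tdT+ and CTL. The tdT+ libraries were thus no closer to each other than to the CTL libraries by this measure. Across the 9 genes called higher, M2 was the lowest tdT+ library for 7 and the highest for 0, and F3 was the highest for 6. Of the 28 genes called lower, 4 were at 0 in all 3 tdT+ libraries. With ties left out, F3 was the lowest for 12, F2 for 5 and M2 for 5, and M2 was the highest for 12, F2 for 8 and F3 for 4.

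The tdT− sdCAMs of BLZ945-treated mice are set beside these values, with the reminder that the contrast with CTL shares the CTL libraries and the contrast with tdT+ shares the tdT+ libraries. Some of them also share animals with the tdT+ libraries, which the test did not take into account. For Cd163 they lay at 771 to 1951 CPM, with a log2 fold change against CTL of −0.21 (edgeR adjusted p = 0.998) and of tdT+ against them of −2.07 (0.00117). For Timd4 they lay at 108 to 265 CPM, with values of −0.31 (0.998) and −3.65 (0.000893). Cd209b in these libraries was at 129 to 223 CPM, under all CTL libraries and above all tdT+ libraries, with −0.85 (0.436) and −4.43 (2.72e-06). Cd4 was at 30.3 to 68.1 CPM, with −1.17 (0.304) and −4.48 (2.25e-05). For H2-Eb1 they spread from 284 to 1107 CPM and overlapped both other groups, with 0.73 (0.883) and 1.17 (0.472). For Igf1 they lay at 164 to 239 CPM, with −0.60 (0.476) and −0.37 (0.737). Of the genes called higher against CTL, Gt(ROSA)26Sor differed by 2.50 (0.0269) between tdT+ and tdT− BLZ945 libraries, which the tdT gate also split. The other 8 were not called in that contrast, with log2 fold changes from 0.59 to 2.21 and adjusted p-values from 0.182 to 0.535. The tdT− BLZ945 mean lay between the other group means for 9 of the 9 higher and 20 of the 28 lower genes. These genes were picked for their difference between tdT+ and CTL, which favours a mean in between, and the share over all genes was not computed.

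The same genes differed in how far microglia of the CTL animals express them, scaled with the factors of all 23 libraries. Cd4, Cd209b, Cd209g, Colec12, Cd55, Timd4 and Pla2g2d stayed under 1 CPM in all 5 microglia libraries. Of the higher genes, Jaml did so too, whereas Slamf9 was at 179 to 222 CPM, Lat2 at 139 to 179 CPM and H2-DMa at 197 to 352 CPM there. Sgce, Xlr, Gimap6, P2rx7, Slc40a1 and Hgsnat were present there, for example Sgce at 143 to 201 CPM and Xlr at 75.1 to 84.0 CPM.

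The plot of calls by setting gives the fate of each call over the 18 alternative settings. Of the 28 lower genes, 12 were called in all 18 settings, and 15 in each setting in which they were tested. None of the 9 higher genes was called in all of them, and all 37 kept their direction in each setting in which they were tested. Without the tdT+ library F2, 8 of the 9 higher and 8 of the 28 lower genes lost the call, and without F3, 7 and 9 did. Without M2, 1 and 7 did.

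**Figure D4:**
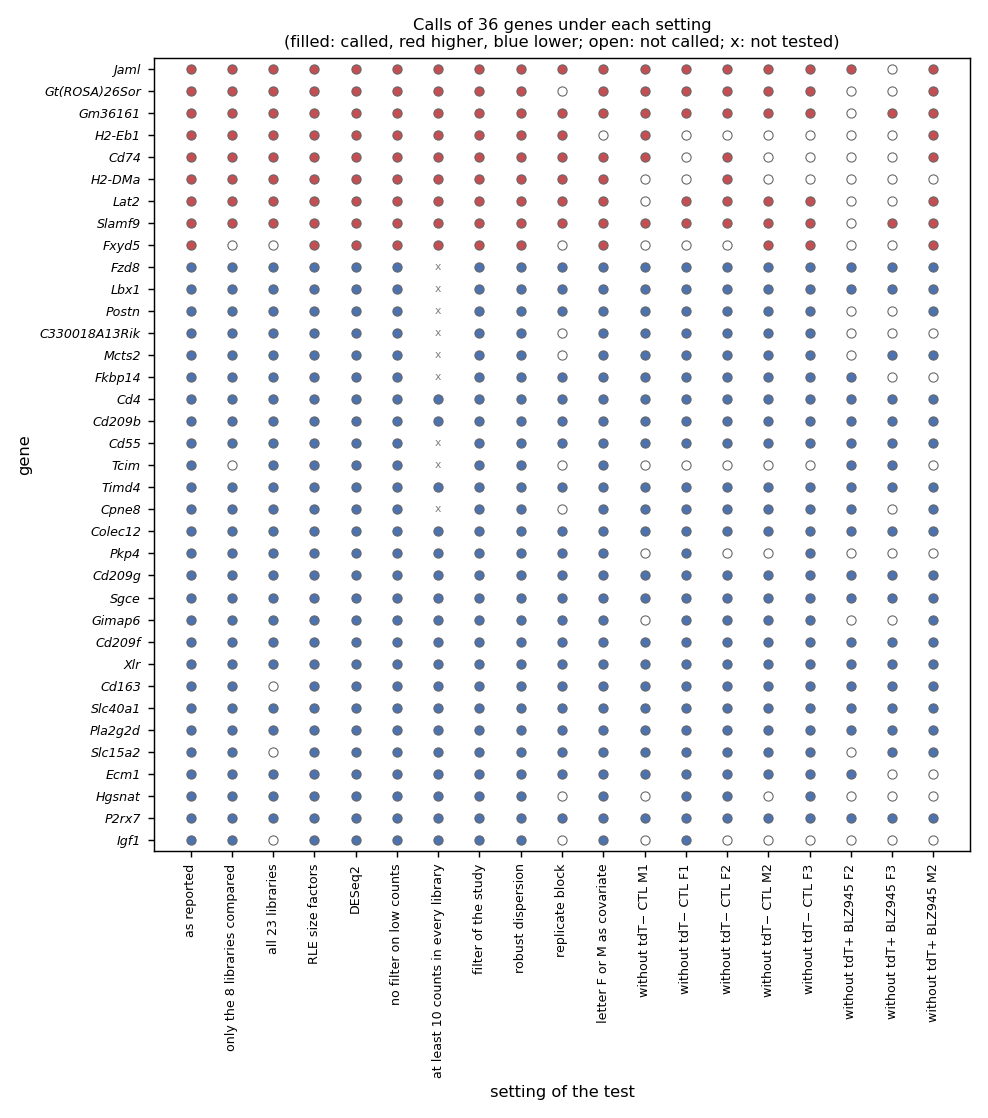
Calls of 36 of the 37 genes (rows) at an adjusted p of 0.05 under the reported test and 18 alternatives (columns). Filled circles mark a call (red higher, blue lower in tdT+), open circles a lost call and x a gene not tested under that filter. The 11 genes with a full row of filled circles are all lower in tdT+ sdCAMs.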

How the data were processed

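RNA of sorted cells was sequenced in 23 libraries. The authors deposited raw read counts per gene, 33280 genes in 1 table, and all values here started from these counts. Per the submitters' processing notes, bcl2fastq 2.20, STAR 2.7.11a, featureCounts 2.0.6 and DESeq2 1.46.0 were used. The genome build of the alignment and the strand setting of the counting are not given clearly in the sources used here, so promoter coordinates are those of RefSeq GRCm38.p6 and were not matched to the reads.

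Genes were filtered with filterByExpr and scaled with TMM factors, and edgeR 4.0.16 in R 4.3.3 fitted a quasi-likelihood model to the 13 sdCAM libraries, from which tdT+ BLZ945 was compared with tdT− CTL. The Benjamini-Hochberg adjustment covered all 13076 genes tested, and genes under an adjusted p of 0.05 were called. CPM values used the same factors. An exact permutation test was used for single values. DESeq2 1.42.0, other filters, scalings and models, and leaving out each library were alternatives. Totals of 10257806 to 13276081 counts limit precision as the floors of 3 counts show.

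Named genes were all called genes, the called members of each list or, where fewer than 2 were called, its members with the highest and lowest log2 fold change at an average log2 CPM of at least 3, and 5 fixed genes. Not every uncalled list member so picked is described in the text, and genes singled out after their values were seen came in addition. Predicted genes are named by symbol only, and 1 called gene is not reported here and is left out of the plots of single genes. The members and lists were chosen with earlier results of these data known. Libraries are separate samples by their labels, partly pools of mice, 2 tdT− BLZ945 libraries may share a mouse, and p-values measure the spread between them. No pair of libraries of a group agreed within sampling noise (chi-square per gene of at least 21.95 within tdT− CTL and 53.77 within tdT+ BLZ945).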

Additional observations from a re-analysis of the deposited data

Results flagged for a closer look

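Among 42 measures checked in the 5 tdT− CTL libraries, 6 had 1 library whose gap to its nearest neighbour took more than 0.71 of the group's range, a limit that chance passes in about 1 of 20 groups. The 3 tdT+ libraries were too few to be checked. Slc40a1 was at 784 CPM in M1, against 509 to 521 CPM in the other CTL libraries. Cd209f was at 1208 CPM in M1, against 705 to 847 CPM. Colec12 was at 411 CPM in F3, against 312 to 338 CPM. P2rx7 was at 316 CPM in F2, against 358 to 373 CPM. Cpne8 was at 63.2 CPM in M2, against 29.7 to 38.1 CPM. C330018A13Rik was at 7.20 CPM in M2, against 2.11 to 3.35 CPM. In each of these genes, the library that stood apart still lay above all 3 tdT+ libraries.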

How the results depend on the processing

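The number of genes called moved by more than 1.5 times in 5 of 18 alternatives. It was 37 as reported, 76 in the model of only the 8 libraries compared, 121 with all 23 libraries, 215 with DESeq2 and 61 with no filter on low counts, and it ran from 21 to 44 when 1 library was left out. The lowest, 21, came without the tdT+ library F2. The higher genes made up 24.3% of calls, 35.4% with at least 10 counts in every library, 4.76% without the tdT+ library F2 and 7.41% without F3. The difference in genes detected was −424 (exact permutation p = 0.0714) when at least 10 counts were required and ran from −979 to −795 with 1 library left out. That of Gt(ROSA)26Sor on the log2(CPM + 1) scale ran from 2.43 to 2.72, and designs with 1 library fewer cannot reach the threshold (p of at least 0.0571 or 0.0952). The cause of these shifts was not tested.

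Tests with a replicate block gave 36 genes, 29 of them shared with the 37. The block ran over all 13 sdCAM libraries. The tdT+ and CTL libraries of the same label shared only a name (correlations of deviations −0.018, 0.001 and 0.027), whereas tdT+ and tdT− BLZ945 libraries of the same label carry the same animal numbers.

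Among the uncalled genes followed over the settings, 11 gained a call in some setting, with 54 such results in all. All 11 gained it with DESeq2, 9 with no filter on low counts and 8 with at least 10 counts in every library. No called gene reversed. Of the uncalled genes named, 9 did so, in log2 units. Plac8 was at 1.19 and Cd79b at −0.073 with the replicate block, and Cd79b at −0.10 with the letter covariate. With 1 library left out, Plac8 ran from −6.59 to 2.57 (0.061 and 0.056 without the tdT+ libraries F2 and F3), Ccr2 from −0.11 to 1.32, Fosl2 from −0.16 to 1.06, Ifi44 from −0.22 to 2.09, Tlr3 from −0.14 to 1.11, Cd79b from −0.40 to 0.52, Acta2 from −0.52 to 1.44, Snap25 from −0.21 to 0.65 and Ttr from −10.56 to 8.19. The negative end came without the tdT+ library F3 for Ccr2, Fosl2, Ifi44, Cd79b, Snap25 and Ttr, without F2 for Tlr3 and without M2 for Plac8 and Acta2.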
